A study of Mus musculus with 10 samples.

Results

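The genes of the mTORC1 core complex and of its nearest controls were followed in sorted mouse intestinal stem cells: Mtor, Rptor, Mlst8, Akt1s1, Deptor, Rheb, Tsc1, Tsc2, Rps6kb1 and Eif4ebp1. They were taken by symbol, 10 rows of the 30295 gene rows, and all 10 were among the 15839 genes that passed the filter on low counts. With edgeR's quasi-likelihood test, adjusted over all 15839 genes, none of the 10 passed an adjusted p of 0.05 in any comparison. The values nearest to it belonged to Rptor, Tsc2 and Mtor, which stood lowest in the Hopx cells of freely fed mice.

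mTORC1 is a protein kinase complex that matches growth to nutrients. Its catalytic subunit is mTOR, RAPTOR is the scaffold that brings substrates to the kinase, and mLST8 binds the kinase domain. Akt1s1 encodes PRAS40 and Deptor encodes DEPTOR, 2 proteins that bind the complex and restrain it. The GTPase RHEB switches the kinase on at the lysosome, and TSC1 and TSC2 form the complex that switches RHEB off. The S6 kinase encoded by Rps6kb1 and the translation repressor encoded by Eif4ebp1 are the best known substrates, through which the complex drives protein synthesis. In the intestinal crypt, mTORC1 is known as a sensor of feeding in stem cells and in their Paneth cell neighbours. The complex is controlled largely through phosphorylation and its place in the cell, and mRNA levels do not measure its activity.

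All animals were C57Bl/6 mice, and each of the 10 libraries came from 1 animal. Active stem cells were sorted from mice with Lgr5-EGFP-IRES-CreER, a reporter at the Lgr5 locus, which either ate ad libitum (Lgr5 AL, 3 animals) or were calorie restricted (Lgr5 CR, 3 animals). Reserve stem cells were sorted from mice with Hopx-CreER::LSL-tdTomato, in which the Hopx-driven recombinase switches on a red label for good, again with free access to food (Hopx AL, 2 animals) or restricted (Hopx CR, 2 animals). Each of the 5 isolations handled 1 AL and 1 CR animal of the same line, so Lgr5 replicates 1, 2 and 3 are isolations 1, 2 and 3, and Hopx replicates 1 and 2 are isolations 4 and 5. Because no isolation held both lines, the population and the isolation cannot be told apart. The sources used here do not give the degree and length of the restriction, the age of the mice or the time between labelling and sorting.

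Library totals ran from 20.3 M to 87.2 M estimated counts, which may have been rebuilt from TPM with 1 length per gene rather than counted, so CPM, the count tests and the length trend rest on values whose making is not known. All 7 active stem cell markers were detected in every library. Their summed level was 3598 to 8079 CPM (counts scaled to a common library total) in the Lgr5 libraries and 2511 to 3349 in the Hopx libraries. Lgr5 mRNA itself overlapped, at 75.0 to 270 CPM in the Lgr5 libraries and 69.3 to 158 in the Hopx libraries. Hopx mRNA was not higher in the Hopx libraries (81.9 to 116 CPM against 116 to 154). Markers of mature cells were plentiful: 7 Paneth cell markers summed to between 15895 CPM in Lgr5 AL replicate 3 and 203479 CPM in Hopx AL replicate 1, and 10 enterocyte markers to between 5262 CPM in Lgr5 AL replicate 3 and 26434 CPM in Lgr5 CR replicate 1. Lgr5 AL replicate 1 stood apart from its group, with 25806 CPM of enterocyte markers against 8111 and 5262 in the other 2 libraries. The Y-linked gene Eif2s3y stood at 0.0406 to 0.254 CPM in Lgr5 AL replicate 3, Lgr5 CR replicate 3 and Hopx CR replicate 1, and at 14.2 to 49.8 CPM elsewhere, so in isolation 4 the AL and CR animals differed in it. In bulk samples such as these, fewer cells of a type and less RNA per cell cannot be told apart.

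Per unit of length, Rheb, Akt1s1 and Deptor gave more mRNA than Mtor in all 4 groups. On the TPM scale, which sets reads against gene length and a fixed total per library, Lgr5 AL cells held Rheb at 59.2 ± 19.6 and Akt1s1 at 51.2 ± 4.2 TPM, followed by Deptor at 29.2 ± 8.5, Mlst8 at 22.7 ± 6.5 and Tsc2 at 20.5 ± 6.5 (SD, n = 3). Rps6kb1 stood at 14.3 ± 5.8, Eif4ebp1 at 12.6 ± 2.7, Rptor at 11.4 ± 3.4, Mtor at 9.35 ± 2.7 and Tsc1 at 7.42 ± 2.5 TPM in the same cells. Neighbours in this order overlapped within 1 SD of their means, apart from Akt1s1 and Deptor. Rheb and Akt1s1 were also the 2 highest and Tsc1 among the 3 lowest in each of the other 3 groups. In Hopx AL cells Rheb was at 46.6 ± 4.3 and Mtor at 3.87 ± 0.40 TPM, and the lowest of the 10 there was Rptor at 3.26 ± 0.68 TPM (SD, n = 2). TPM levels were lower in Hopx AL than in Lgr5 AL for all 10 genes, and the median of all genes on that scale was lower as well, by a log2 difference of -0.62, so the populations are compared below on CPM with TMM scaling, which sets the bulk of genes level between libraries.

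The 3 genes with the largest differences are long. Their start regions are shown as a description, and a link of these sequences to the values was not tested. Mtor lies on chromosome 4 at 148448611 to 148557683 on the plus strand, Rptor on chromosome 11 at 119602905 to 119899576 on the plus strand, and Tsc2 on chromosome 17 at 24595816 to 24632630 on the minus strand (GRCm38, GENCODE M21). The 250 bases before each gene's RefSeq start follow, from RefSeq on GRCm38.p6, 5′ to 3′ on the strand of the gene. They cover chr4:148448332-148448581 for Mtor, chr11:119602655-119602904 for Rptor and chr17:24632628-24632877 for Tsc2. Capitals mark exact matches on either strand to the motifs that were searched, named in the next paragraph.
Mtor: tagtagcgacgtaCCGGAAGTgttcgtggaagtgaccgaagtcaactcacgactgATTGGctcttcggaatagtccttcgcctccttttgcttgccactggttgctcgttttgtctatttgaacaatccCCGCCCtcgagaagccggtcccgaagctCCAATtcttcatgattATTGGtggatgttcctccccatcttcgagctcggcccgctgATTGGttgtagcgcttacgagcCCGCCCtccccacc
Rptor: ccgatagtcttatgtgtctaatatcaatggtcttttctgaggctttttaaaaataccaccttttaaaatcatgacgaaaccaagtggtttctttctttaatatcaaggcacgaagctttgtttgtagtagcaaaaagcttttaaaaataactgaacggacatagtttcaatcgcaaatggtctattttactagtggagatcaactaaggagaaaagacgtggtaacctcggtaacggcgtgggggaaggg
Tsc2: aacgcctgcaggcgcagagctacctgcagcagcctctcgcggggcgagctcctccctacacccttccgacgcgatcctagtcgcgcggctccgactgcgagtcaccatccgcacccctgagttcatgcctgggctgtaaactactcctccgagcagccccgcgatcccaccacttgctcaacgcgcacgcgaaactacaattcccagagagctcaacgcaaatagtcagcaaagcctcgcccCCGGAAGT

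The motifs were chosen after the values had been seen. They were the ETS site CCGGAAGT, the E-box CACGTG, the GC box GGGCGG, the CCAAT box CCAAT and the TATA box TATAAA, each looked for on both strands in the 250 bases before a start, and no 2 of these sequences contain each other. RefSeq windows were matched for 8 of the 10 genes, Mtor, Rptor, Mlst8, Akt1s1, Rheb, Tsc1, Tsc2 and Rps6kb1. They held from 9 (Rptor) to 37 (Rheb) CpG, a C followed by a G, against a median of 6 over all windows. The shares of all windows given below are thus not from windows of like make-up. The ETS site was in the windows of Mtor, Akt1s1 and Tsc2, against 2.88% of all 32851 windows of the same length. In Mtor it began 237 bases before the start and in Tsc2 8 bases before it. The GC box was in those of Mtor, Rheb and Akt1s1 (32.7% of all windows), the CCAAT box in that of Mtor (33.8%), the E-box in that of Rheb (6.02%) and the TATA box in none of the 8 (12.4%). None of these motifs occurred in the Rptor window, which was 37.6% G and C against 54.4% for Mtor, 62.8% for Tsc2 and a median of 52.4% over all windows. Rptor and Tsc2 thus shared no searched motif.

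Mtor, the kinase, was lowest in Hopx AL. Its level in Lgr5 AL replicates 1, 2 and 3 was 35.5, 52.8 and 42.7 CPM, and in Lgr5 CR replicates 1, 2 and 3 it was 59.7, 50.7 and 72.0 CPM. In Hopx AL replicates 1 and 2 it was 34.1 and 29.5 CPM, and in Hopx CR replicates 1 and 2 it was 64.4 and 55.9 CPM. Both Hopx CR libraries lay above every AL library of either population, while the Lgr5 diets overlapped because Lgr5 CR replicate 2 was below Lgr5 AL replicate 2.

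Rptor, the scaffold, was the most evenly measured of the 10 in Hopx AL on the CPM scale, but not in TPM. The 2 Hopx AL libraries held 24.7 and 24.9 CPM (2.78 and 3.75 TPM), and the 2 Hopx CR libraries 54.7 and 49.0 CPM. The Lgr5 AL libraries held 41.5, 55.4 and 51.0 CPM and the Lgr5 CR libraries 46.3, 39.3 and 49.5 CPM. Hopx AL thus stood below all 8 other libraries, and the other 3 groups overlapped one another. Mlst8, the remaining core subunit, differed less, with 39.9 and 40.6 CPM in Hopx AL and 52.8 and 46.0 in Hopx CR. Its Lgr5 AL libraries were at 47.96, 64.8 and 57.5 CPM and its Lgr5 CR libraries at 49.4, 52.6 and 52.6 CPM. Hopx AL was again below every other library for Mlst8, as it was for Mtor. How many of all genes shared this pattern was not counted.

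**Figure D1:**
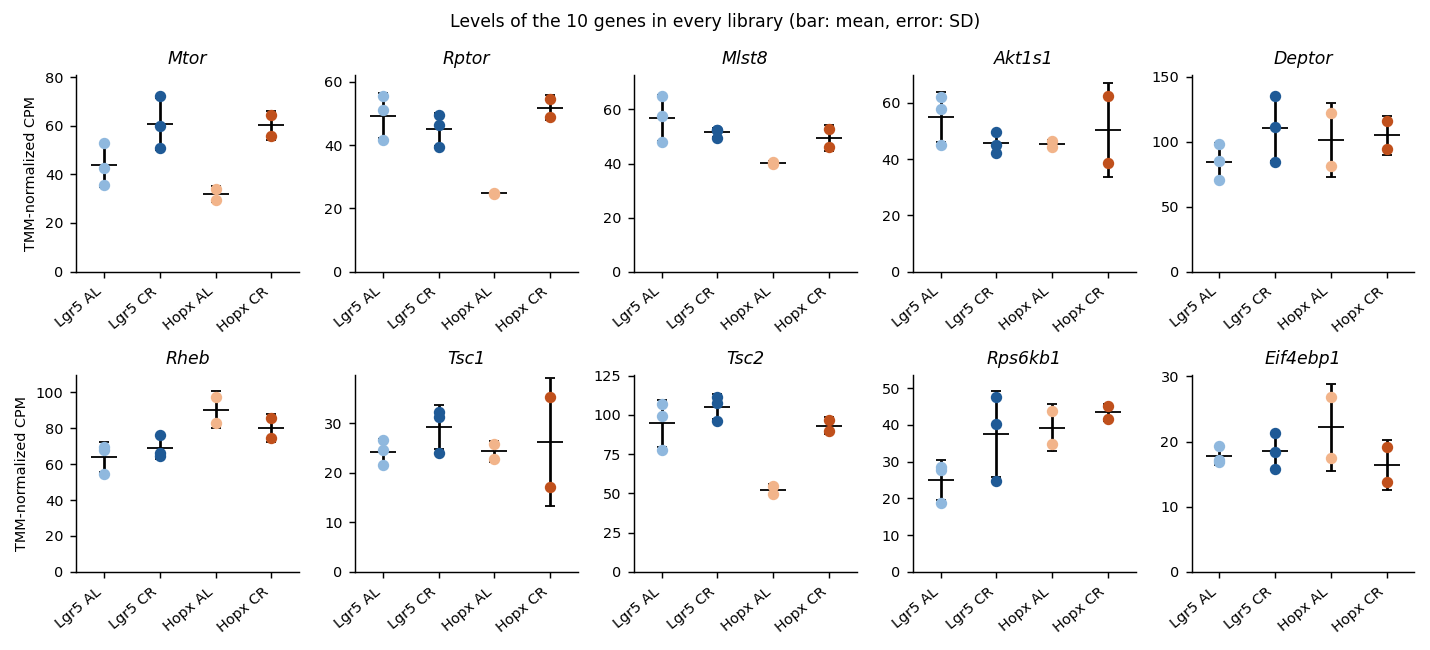
TMM-normalized CPM (y axis, linear, from 0) of each of the 10 genes in the 4 groups; each point is 1 library, the horizontal bar is the group mean and the error bar is the SD. For Mtor, Rptor, Mlst8 and Tsc2 the 2 Hopx AL libraries lie below all 8 other libraries, with Rptor at 24.7 and 24.9 CPM. The share of all genes with this pattern was not counted.

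The 2 inhibitors that sit on the complex showed no such pattern. Akt1s1 stood at 57.6, 62.2 and 45.0 CPM in Lgr5 AL, 45.0, 49.5 and 42.2 in Lgr5 CR, 46.4 and 44.4 in Hopx AL, and 38.5 and 62.2 in Hopx CR. Hopx CR replicate 1 was the lowest of all 10 libraries and Hopx CR replicate 2 shared the highest value with Lgr5 AL replicate 2, so the diets overlapped. Deptor stood at 70.4, 98.5 and 85.4 CPM in Lgr5 AL, 135, 84.7 and 111 in Lgr5 CR, 81.2 and 122 in Hopx AL, and 116 and 94.3 in Hopx CR. All 4 groups overlapped for Deptor.

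Upstream of the kinase, Hopx AL held the highest Rheb and the lowest Tsc2 values of the 10 libraries, apart from Rheb in Hopx CR replicate 1. Rheb, the activating GTPase, was at 68.0, 54.6 and 69.5 CPM in Lgr5 AL, 66.0, 64.7 and 76.4 in Lgr5 CR, 97.5 and 83.0 in Hopx AL, and 85.7 and 74.6 in Hopx CR. Tsc2, the subunit that inactivates RHEB, was at 78.0, 107 and 99.1 CPM in Lgr5 AL, 112, 96.1 and 108 in Lgr5 CR, 50.0 and 55.0 in Hopx AL, and 97.1 and 89.5 in Hopx CR. Tsc2 in Hopx AL was below all 8 other libraries, as for Mtor, Rptor and Mlst8. The share of all genes with this pattern was not counted. Rheb in Hopx AL was above all 3 Lgr5 AL libraries. Tsc1, the partner that stabilizes TSC2, was at 21.5, 24.6 and 26.6 CPM in Lgr5 AL, 31.2, 24.0 and 32.3 in Lgr5 CR, 25.8 and 22.8 in Hopx AL, and 35.3 and 17.1 in Hopx CR. The Tsc1 groups overlapped, and the 2 Hopx CR libraries were its highest and lowest.

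Of the substrates, Rps6kb1 was at 18.8, 27.8 and 28.5 CPM in Lgr5 AL, 47.6, 24.6 and 40.2 in Lgr5 CR, 34.7 and 43.8 in Hopx AL, and 45.0 and 41.7 in Hopx CR. Its Lgr5 AL libraries lay below all 4 Hopx libraries. Eif4ebp1 was at 16.9, 19.4 and 17.1 CPM in Lgr5 AL, 15.8, 21.3 and 18.5 in Lgr5 CR, 26.9 and 17.5 in Hopx AL, and 13.7 and 19.2 in Hopx CR. All 4 groups overlapped for Eif4ebp1.

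The first comparison asked how restriction differed from free feeding in Lgr5 cells. Mtor was higher by a log2 fold change of 0.48 (SE 0.193, 1.39-fold, adjusted p = 0.465) and Rps6kb1 by 0.58 (SE 0.258, adjusted p = 0.509), both at unadjusted edgeR p-values (0.0327 and 0.0479) under 0.05. Deptor followed at 0.38 and Tsc1 at 0.27, Tsc2, Rheb and Eif4ebp1 at 0.15, 0.11 and 0.06, and Rptor, Mlst8 and Akt1s1 at -0.13, -0.14 and -0.27. None of the 10 passed, against 0.0189% of all genes, and none had groups that did not overlap, against 7.41% of all genes higher and 7.49% lower. At an unadjusted p under 0.05 the 2 genes named were higher and none was lower, against 5.57% and 4.21% of all genes, and DESeq2 called none of the 10 (2.25% of its genes). The median of the 10 was 0.13 beside 0.02 for all tested genes. The Mtor value was 0.29 (adjusted p = 0.577) after correction for gene length. The Rps6kb1 interval at 95% ran from 0.01 to 1.16, and without Lgr5 CR replicate 1 the value was 0.34 for Rps6kb1 and 0.18 for Deptor. Markers of other cells differed as well: all 7 tuft cell markers were lower under restriction (median -1.85), with sums of 69.0 to 97.4 CPM in Lgr5 CR against 192 to 414 in Lgr5 AL and Il25 at 0 in 2 of the 10 libraries. All 10 enterocyte markers were higher (median 0.97), with sums of 19125 to 26434 CPM against 5262 to 25806, and 6 of 7 enteroendocrine markers were higher (median 0.53), with sums of 716 to 3977 CPM against 1336 to 2677. None of these markers passed, and their part in the values of Mtor and Rps6kb1 was not tested.

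The same comparison in Hopx cells gave the largest differences of the set. Rptor was higher under restriction by 1.07 on the log2 scale (SE 0.198, 2.09-fold, 95% interval 0.62 to 1.51), Mtor by 0.92 (SE 0.237, 1.89-fold, 0.39 to 1.45) and Tsc2 by 0.83 (SE 0.191, 1.78-fold, 0.40 to 1.26). The unadjusted edgeR p-values were 0.000316, 0.00313 and 0.00147, and over all genes the adjusted p was 0.406, 0.469 and 0.455, so none passed, against 0.0126% of all genes. By p, Rptor ranked 12, Tsc2 48 and Mtor 105 among the 15839 genes. Mlst8 stood at 0.29, Akt1s1 and Rps6kb1 at 0.15, Tsc1 at 0.11, Deptor at 0.05, Rheb at -0.17 and Eif4ebp1 at -0.43. Mtor, Rptor, Mlst8 and Tsc2 were higher in both restricted libraries than in both fed ones, which with 2 libraries a group held for 21.5% of all genes, and none was lower in this way (21.1% of all genes). At an unadjusted p under 0.05, 3 of the 10 were higher and none was lower, against 5.41% and 3.11% of all genes.

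The Hopx calls turned on the method and rested on 2 animals a group. DESeq2 called Rptor (1.06, adjusted p = 0.000624) and Tsc2 (0.83, adjusted p = 0.0141) as higher under restriction, against 0.538% of its genes called higher, and not Mtor (0.91, adjusted p = 0.0543). With any 1 of the 10 libraries left out edgeR called none of the 3, and Rptor ranged from 0.98 to 1.15, Mtor from 0.81 to 1.04 and Tsc2 from 0.77 to 0.90. Markers of other cells moved along: the summed enterocyte markers were at 7541 and 11125 CPM in Hopx AL and at 17871 and 20736 in Hopx CR, with 10 of 10 markers higher (median 0.97) and none at 0 in any library. All 8 immune markers were lower (median -1.70), with sums of 84.9 to 195 CPM in Hopx AL and 21.0 to 68.6 in Hopx CR, as were 6 of 7 Paneth cell markers (median -0.65) with sums of 82094 to 203479 and 60815 to 97135 CPM. All 7 enteroendocrine markers were lower too (median -0.56), with sums of 7547 to 7861 and 2964 to 7798 CPM, while 5 of 7 active stem cell markers were higher (median 0.47), with sums of 2578 to 3349 and 2511 to 3246 CPM. None of these markers passed, and their part in the values of Rptor, Mtor and Tsc2 was not tested. In Lgr5 cells the 10 enterocyte markers were also all higher under restriction (median 0.97). Their sums overlapped between the diets there, which the Hopx sums did not. Mtor stood at 0.48, Tsc2 at 0.15 and Rptor at -0.13 in the Lgr5 diets, and a link of these values to the markers was not tested.

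**Figure D2:**
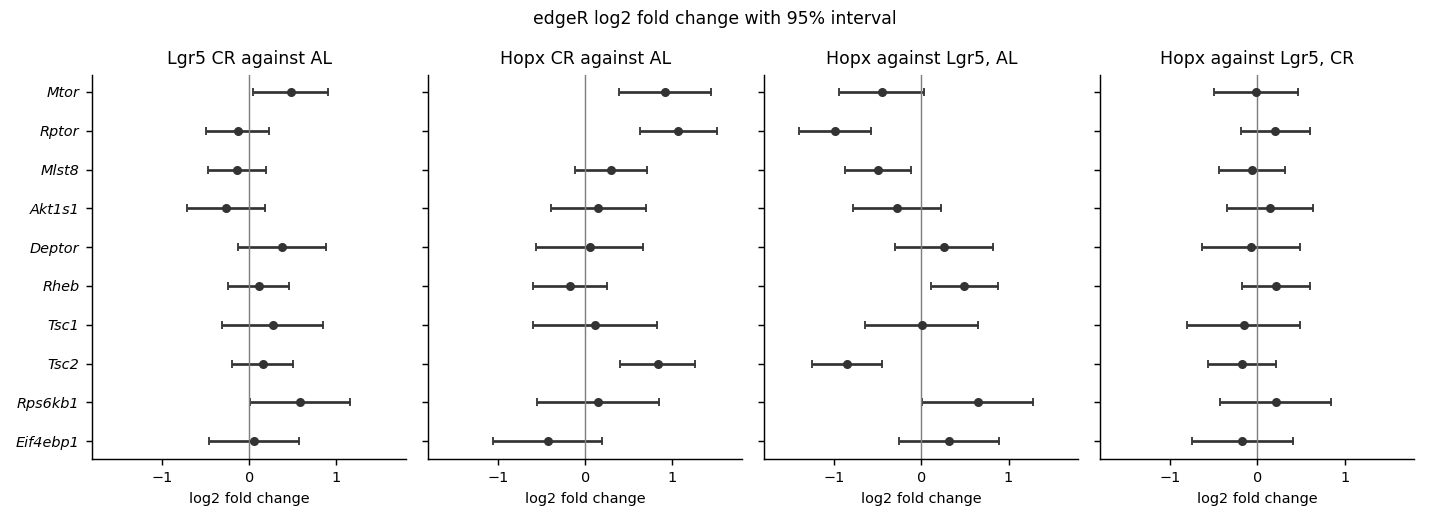
edgeR log2 fold change (x axis) of each of the 10 genes in 4 comparisons; points are estimates and bars are 95% intervals. In Hopx cells Rptor (1.07), Mtor (0.92) and Tsc2 (0.83) lie to the right of 0 under restriction, Rptor (-0.99) and Tsc2 (-0.85) lie to the left of 0 in Hopx against Lgr5 cells of fed mice, and in restricted mice all 10 intervals span 0.

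Whether the diet difference itself differed between populations was tested as an interaction. The Hopx difference exceeded the Lgr5 difference by 1.20 for Rptor (SE 0.254, 95% interval 0.63 to 1.76) and by 0.68 for Tsc2 (SE 0.245, 0.13 to 1.22). The unadjusted p-values of edgeR's model were 0.000838 and 0.0204. For Mtor the excess was 0.44 (SE 0.304, -0.24 to 1.12), so its interval held 0 as well as more than a doubling, and without Lgr5 AL replicate 2 it was 0.28. All 10 had an adjusted p of 1, against 0.00631% of all genes called, and 2 were higher at an unadjusted p under 0.05, against 2.83%, with none lower (1.89%). DESeq2 called Rptor alone (1.23, adjusted p = 0.00932; 0.108% of its genes were called higher).

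Between the populations of fed mice the set split. Rptor was lower in Hopx than in Lgr5 cells by a log2 fold change of -0.99 (SE 0.185, 95% interval -1.41 to -0.58, adjusted p = 0.0655) and Tsc2 by one of -0.85 (SE 0.178, -1.25 to -0.45, adjusted p = 0.0775). Mlst8 stood at -0.50 (adjusted p = 0.177), Mtor at -0.46 (adjusted p = 0.31) and Akt1s1 at -0.27, while Rps6kb1 stood at 0.65 (adjusted p = 0.275), Rheb at 0.49 (adjusted p = 0.183), Eif4ebp1 at 0.32, Deptor at 0.26 and Tsc1 at 0.01. None passed, against 0.0189% of all genes. The groups did not overlap for Rptor, Tsc2, Mlst8 and Mtor, all lower (15.8% of all genes), and for Rheb and Rps6kb1, both higher (18.8%). At an unadjusted edgeR p under 0.05, 3 were lower and 2 higher, against 8.42% and 9.27% of all genes. This comparison and the Hopx diet comparison use the same 2 Hopx AL libraries, so the low Hopx AL values of Rptor and Tsc2 enter both.

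The call for Rptor and Tsc2 in fed mice changed with 1 library and with the method. Without Lgr5 AL replicate 1, the library with the high enterocyte markers, Rptor at -1.10 and Tsc2 at -0.97 both passed (adjusted p = 0.049), and 110 genes were called in place of 3. DESeq2 called both as lower (Rptor -1.03, adjusted p = 2.79e-05; Tsc2 -0.89, adjusted p = 0.000292; 4.3% of its genes were called lower). On log2(TPM + 1) limma called 5 of the 10 lower, namely Rptor, Tsc2, Mlst8, Mtor and Akt1s1, among 28.6% of all genes called lower, and relative to the all-gene median there Rptor stood at -0.89, Tsc2 at -0.87, Mlst8 at -0.57, Mtor at -0.43, Akt1s1 at -0.40, Rheb at 0.33 and Rps6kb1 at 0.50. Without that shift Rheb and Rps6kb1 turned to -0.29 and -0.12. The Mtor value with edgeR was -0.30 without Lgr5 AL replicate 2. Active stem cell markers were lower in Hopx AL for 7 of 7 (median -1.07), and Paneth cell markers were higher for 7 of 7 (median 1.28). Enteroendocrine markers were higher for 7 of 7 (median 1.92), with sums of 7547 to 7861 CPM in Hopx AL against 1336 to 2677 in Lgr5 AL, and goblet cell markers for 5 of 7 (median 1.40), with sums of 4598 to 9006 against 2873 to 6017. No marker passed, and their part in these values was not tested.

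In restricted mice the populations could not be told apart by these genes. The 10 log2 fold changes of Hopx against Lgr5 CR ran from -0.17 for Tsc2 to 0.21 for Rheb, with Rptor at 0.20 and Mtor at -0.02. All 10 genes overlapped between the groups, where 11.7% of all genes were higher and 11.4% lower without overlap, and none had an unadjusted edgeR p under 0.05, against 3.31% and 2.99%. None passed with edgeR (0.0189% of all genes) or with DESeq2 (0.955%). The 95% intervals ran from -0.49 to 0.46 for Mtor, from -0.19 to 0.60 for Rptor and from -0.56 to 0.21 for Tsc2, so differences of the size seen in fed mice lay outside those of Rptor and Tsc2.

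Averaged over both populations with equal weight, restriction went with higher Mtor by 0.70 (SE 0.153, 1.62-fold, adjusted p = 0.121), Tsc2 by 0.49 (SE 0.123, adjusted p = 0.142) and Rptor by 0.47 (SE 0.127, adjusted p = 0.174). This average uses the libraries of both diet comparisons and adds no independent evidence. None of the 10 passed, against 0.00631% of all genes, and these 3 were higher at an unadjusted edgeR p under 0.05, against 8.35% of all genes, with none lower (6.17%). DESeq2 called all 3 as higher: Mtor at 0.68 (adjusted p = 0.00537), Tsc2 at 0.47 (adjusted p = 0.0181) and Rptor at 0.45 (adjusted p = 0.0378), against 2.33% of its genes. After correction for gene length they stood at 0.46, 0.27 and 0.25 with edgeR (adjusted p = 0.234, 0.308 and 0.349).

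The isolation pairs show the same differences animal by animal, as log2 CPM of the CR animal minus the AL animal of an isolation. For Mtor isolations 1 to 5 gave 0.74, -0.06, 0.75, 0.90 and 0.91, so 4 of 5 pairs were positive and isolation 2 showed almost no difference. Tsc2 gave 0.51, -0.15, 0.12, 0.95 and 0.70, also 4 of 5. Rptor gave 0.15, -0.49, -0.04, 1.13 and 0.97, so it was near or below 0 in the Lgr5 pairs and near 1 in both Hopx pairs. Rps6kb1 was positive in 3 pairs, reaching 1.32 in isolation 1, and Deptor in 3, reaching 0.93 in the same isolation. Akt1s1 was negative in 4 of 5 pairs, with 0.48 in isolation 5. No gene of the 10 had the same sign in all 5 pairs, where 8.71% of all genes were positive and 7.94% negative in all 5. The 2 genes positive in 4 of 5 pairs compare with 17.1% of all genes. By isolation, 7, 2, 7, 7 and 6 of the 10 were positive in isolations 1 to 5, against 49.5%, 49.5%, 53.3%, 49.1% and 49.1% of all genes. On CPM, isolation 2 was thus the exception, with 8 of the 10 genes negative. On log2(TPM + 1), isolation 3 was negative for every gene but Mtor (0.21), with Tsc2 at -0.39 and Rptor at -0.53. Isolation 4 is the one whose animals differed in the Y-linked gene. On CPM, the Hopx pair of isolation 5, whose animals both held Eif2s3y at 44.4 to 49.8 CPM, gave 0.91 for Mtor, 0.97 for Rptor and 0.70 for Tsc2. Whether the Y-linked difference bears on the values of isolation 4 was not tested.

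**Figure D3:**
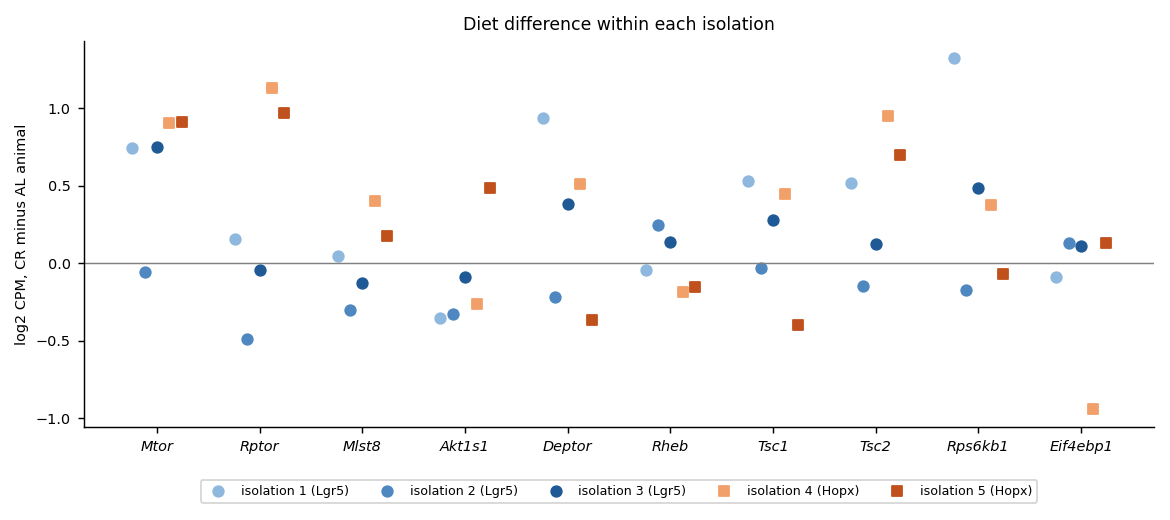
Difference in log2 CPM between the CR and the AL animal of an isolation (y axis) for each of the 10 genes; circles are Lgr5 isolations 1 to 3 and squares are Hopx isolations 4 and 5. Rptor splits by population, with -0.49 to 0.15 in Lgr5 and 0.97 to 1.13 in Hopx pairs, while Mtor is positive in all pairs but isolation 2.

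The balance of the mRNAs is given as ratios of TPM within a library, where library scaling cancels. No protein was measured, so these ratios do not give the make-up of the complex. Rptor to Mtor was 1.22 ± 0.08 in Lgr5 AL, 0.80 ± 0.05 in Lgr5 CR (SD, n = 3), then 0.84 ± 0.09 for fed and 0.93 ± 0.02 for restricted Hopx cells (SD, n = 2). The 3 Lgr5 AL libraries at 1.13 to 1.28 lay above all 7 others, which ran from 0.74 to 0.94. Tsc2 to Rheb, the inactivating subunit against its target, was 0.36 ± 0.10 in Lgr5 AL, 0.36 ± 0.03 in Lgr5 CR, 0.14 ± 0.03 in fed and 0.27 ± 0.01 in restricted Hopx cells (SD). The 2 Hopx AL libraries at 0.12 and 0.16 were below all 8 others. Tsc2 to Tsc1 was also lowest in Hopx AL, at 1.38 and 1.72 against 1.96 to 3.72 elsewhere, and Mlst8 to Mtor was 2.17 to 2.56 in both AL groups and 1.36 to 1.93 in both CR groups. Rptor to Rictor, which sets the scaffold of mTORC1 against that of the second mTOR complex, was 1.35 and 1.87 in Hopx AL and 3.22 and 3.84 in Hopx CR, while the Lgr5 groups overlapped (2.15 to 5.86 and 1.96 to 3.16). The length trend of the next paragraph does not cancel between genes of unlike length, such as Tsc2 (length class 5) and Rheb (class 2). The longest class against the shortest stood at -0.49 and -0.31 in Hopx AL, and its part in the ratios was not tested. These ratios were chosen with the levels known and carry no test, and no share of other gene pairs is given beside them.

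The level of long genes against short ones differed between libraries. Mtor, Rptor and Tsc2 are long, with effective lengths at percentiles 94.9, 93.6 and 94.9 of the tested genes. The part of this trend in their values was not tested. Mtor, Rptor, Tsc2, Tsc1 and Deptor belong to the longest of 5 equal length classes, Mlst8 to class 4, Rps6kb1 and Eif4ebp1 to class 3, and Akt1s1 and Rheb to class 2. In Hopx CR against AL the median log2 fold change of all genes ran from -0.28 in the shortest class to 0.22 in the longest, and in Hopx against Lgr5 AL from 0.36 to -0.16. The median level of the longest class minus the shortest, relative to the mean of all libraries, was -0.49 and -0.31 in Hopx AL replicates 1 and 2 and 0.19 and -0.11 in Hopx CR. Within the longest class Rptor stood at percentile 93.3, Mtor at 91.1 and Tsc2 at 89.1 of the Hopx diet values, while Tsc1 at 40.8 and Deptor at 36.6, of the same class, did not stand high. After correction for length the Hopx diet values were 0.79 for Rptor, 0.63 for Mtor and 0.56 for Tsc2 (edgeR adjusted p = 0.559, 0.616 and 0.602), and in Hopx against Lgr5 AL they were -0.82 for Rptor (adjusted p = 0.0602), -0.69 for Tsc2 (adjusted p = 0.087) and -0.28 for Mtor (adjusted p = 0.518), where Mtor had stood at -0.46. All 6 kept their sign.

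**Figure D4:**
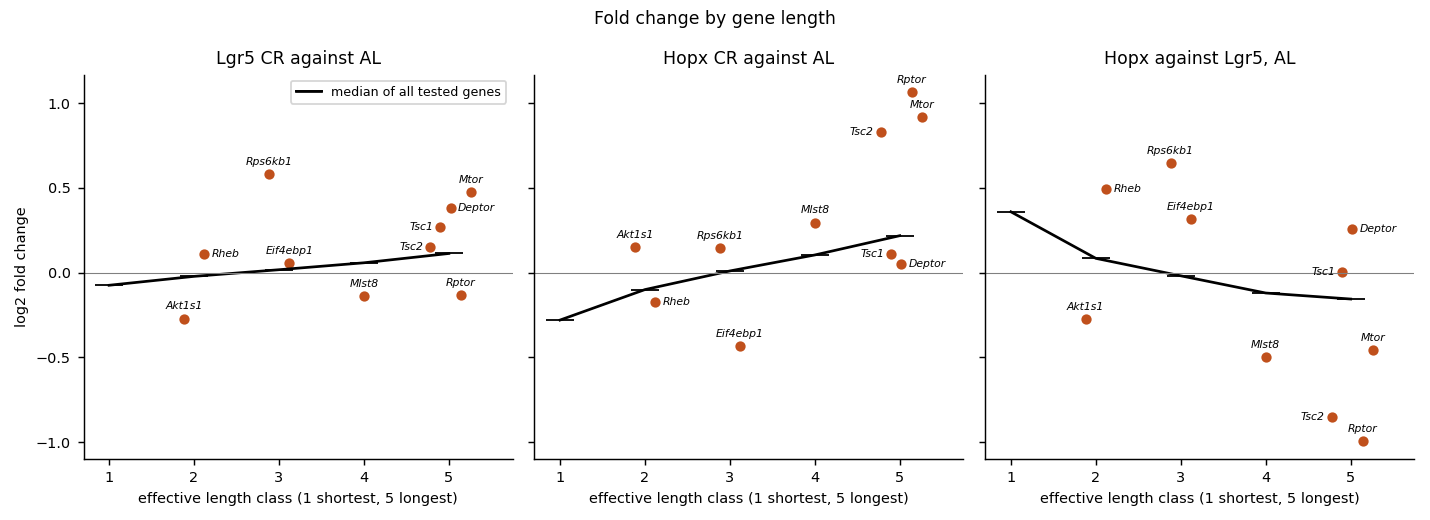
edgeR log2 fold change (y axis) of the 10 genes by effective length class (x axis, points shifted sideways within a class for legibility) in 3 comparisons; the black line joins the medians of all tested genes in each class. In Hopx CR against AL the line climbs from -0.28 to 0.22, with Rptor, Mtor and Tsc2 above it and Tsc1 and Deptor below it.

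Across the 10 libraries Rptor and Tsc2 had the highest Pearson correlation of log2 CPM among the pairs of the set, r = 0.925 (rho = 0.685). By rank Rptor and Mlst8 (rho = 0.879), Deptor and Rps6kb1 (0.842), Mtor and Tsc2 (0.770) and Mlst8 and Tsc2 (0.733) stood above that pair. Within groups, after the group means were taken away, their r was 0.916, that of Mtor and Rptor 0.926 and that of Deptor and Rps6kb1 0.890. Over all libraries Deptor and Rps6kb1 had r = 0.853, Mtor and Tsc2 0.838, Rptor and Mlst8 0.835 and Mtor and Rptor 0.786, and Akt1s1 and Tsc1 ran opposite ways at -0.804. These values describe 10 libraries that share groups, depth and the length trend. Of 9966 other genes with at least 5 CPM, the 5 most like Mtor over the 10 libraries were Gata4 (r = 0.957), Vwa8 (0.951), D17Wsu92e (0.945), Cdh1 (0.941) and Hdlbp (0.94). Gata4, a transcription factor of the gut epithelium, ran from 208 CPM in Hopx AL replicate 2 to 361 in Lgr5 CR replicate 3, the libraries in which Mtor was also lowest and highest.

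The rest of the pathway was followed in a list of 57 further genes, 56 of them tested. None passed in any of the 6 comparisons with edgeR or with DESeq2. In Hopx CR against AL 31 were higher and 25 lower with a median of 0.03, beside -0.02 for all tested genes, and the groups did not overlap for 7 higher and 7 lower of the 56, against 21.5% and 21.1% of all genes, so for fewer than in the background. In Hopx against Lgr5 AL 24 were higher and 32 lower (median -0.07), with no overlap for 6 higher and 13 lower, against 18.8% and 15.8% of all genes. In Lgr5 CR against AL 23 were higher and 33 lower (median -0.05), with no overlap for 4 and 3, against 7.41% and 7.49%. At an unadjusted edgeR p under 0.05 the Hopx diets held 1 of the 56 higher and 0 lower (5.41% and 3.11% of all genes), the populations of fed mice 3 and 7 (9.27% and 8.42%) and the Lgr5 diets 2 and 1 (5.57% and 4.21%). The 9 Rag GTPase and Ragulator genes, which bring mTORC1 to the lysosome, and Slc38a9, a lysosomal amino acid transporter that acts with them, all had higher CPM in Hopx than in Lgr5 AL cells, as did 52.4% of all genes. Their median was 0.45, beside 0.04 for all tested genes and 0.36 for the shortest length class, where 74.8% of genes were higher and which holds 4 of these 10, namely Lamtor1, Lamtor2, Lamtor4 and Lamtor5. Measured in TPM, which stood lower in Hopx AL for genes in general, 9 of the 10 had lower group means in Hopx AL, the exception being Lamtor4. The smallest p-values were those of Lamtor4 (0.98, adjusted p = 0.141) and Lamtor3 (0.60, adjusted p = 0.155). Lamtor4 was at 19.2 and 26.3 CPM in Hopx AL and 12.2, 13.1 and 9.19 in Lgr5 AL. The 5 sestrins and amino acid sensors, which hold the complex back when amino acids are scarce, were all lower in CPM in the same comparison (median -0.66). Of all 15839 genes 7525 were lower. In Hopx CR against AL all 5 were higher (median 0.71), as were 7692 of all genes. Group means in TPM went the same ways, but the median of all genes on log2(TPM + 1) also moved, by -0.62 and 0.24. Both comparisons share the Hopx AL libraries. In the Hopx diets the smallest p was that of Gatsl2, a synonym of Castor2, at 0.99 (edgeR adjusted p = 0.626). Gatsl2 was also the only sestrin or sensor gene whose Hopx diet groups did not overlap. Sesn1 and Sesn2 were lower in the CR animal of isolation 5 (70.7 against 71.3 and 22.4 against 25.4 CPM). Gatsl3 at 0.03 to 0.65 CPM and Sesn3 at 0.50 to 1.78 CPM in the Hopx libraries stood close to the filter.

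Single genes of the pathway with the smallest p-values did not pass either. Ddit4l, an inhibitor of mTORC1 and relative of the stress gene Ddit4, was at 0.323 and 0.599 CPM in Hopx AL and 2.84 and 1.90 in Hopx CR (log2 fold change 2.37, adjusted p = 0.49), levels close to the filter. Eif4ebp3, a paralog of Eif4ebp1, was at 3.32, 3.66 and 4.31 CPM in Lgr5 AL and 6.43, 5.05 and 9.77 in Lgr5 CR (0.92, adjusted p = 0.453), with no overlap, while Eif4ebp1 stood at 0.06. Telo2, which helps fold and assemble mTOR, was at 43.9, 51.6 and 43.7 CPM in Lgr5 AL, 33.8, 29.6 and 37.3 in Lgr5 CR, 25.3 and 35.9 in Hopx AL, and 28.9 and 24.0 in Hopx CR. Its log2 fold change was -0.47 in the Lgr5 diets (adjusted p = 0.455) and -0.21 in the Hopx diets (adjusted p = 0.818), where Mtor stood at 0.48 and 0.92, and -0.60 in Hopx against Lgr5 AL (adjusted p = 0.181), where Mtor stood at -0.46. Rictor stood at 0.31 in Lgr5 and -0.09 in Hopx cells under restriction, Tbc1d7, the third TSC subunit, at -0.04 in both, Rhebl1 at 0.60 and 0.09, Rps6kb2 at 0.18 and 0.02, and Eif4ebp2 at -0.11 and -0.15.

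Some of the 10 genes share transcribed bases with a neighbour on the other strand, and reads from such overlaps cannot be assigned without strand. Mlst8 shares 997 of its 4435 exonic bases with Bricd5, Tsc2 693 of 9620 with Pkd1, Rps6kb1 155 of 8658 with Rnft1, and Akt1s1 89 of 3072 with Tbc1d17 (GRCm38, GENCODE M21). Deptor shares 303 of 8874 with Gm9920, and Rptor 84 of 13471 with Rptoros, annotated as antisense. Pkd1 stood at 21.8 CPM in both Hopx AL libraries and at 11.6 and 33.7 in Hopx CR (log2 fold change 0.06), where Tsc2 stood at 0.83. Bricd5 did not exceed 0.44 CPM in any library. Mtor, Rheb, Tsc1 and Eif4ebp1 share no exonic base with another annotated gene. These neighbours were looked at after the values of the 10 genes had been seen.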

How the data were processed

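RNA from sorted cells was made into cDNA with SMART-Seq v4 and into libraries with Nextera XT and sequenced on an Illumina NextSeq, per the labels' protocols. Neither kit adds molecular identifiers or marks strand. The authors deposited estimated counts per gene symbol and TPM for the same 30295 rows and 10 libraries. The submitters' processing notes name kallisto, edgeR and GRCh38, a human build, while the symbols are those of mouse genes, and the sources used here do not give versions or annotation. For 11719 of 11719 genes with over 20 estimated counts in every library, the deposited estimated count divided by TPM was 1 length per gene times 1 factor per library (tolerance 1e-06), so the 2 tables are 1 measurement, and TPM fits test only scaling and model. kallisto's effective lengths normally differ between libraries, so the deposited estimated counts may have been rebuilt from TPM with 1 length per gene. Their CPM, the numbers of genes called by count tests and the length trend would then not rest on counts as sequenced, and which holds is not given in the sources used here.

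Estimated counts were rounded and filtered with filterByExpr (minimum count 10), which left 15839 genes, and scaled by TMM. edgeR's quasi-likelihood test (edgeR 4.0.16, R 4.3.3) was fitted to all 10 libraries with 1 mean per group, with two-sided p-values and Benjamini-Hochberg adjustment over all genes of a comparison, with a threshold of 0.05. The SE is the log2 fold change divided by the square root of F, and the 95% interval uses edgeR's degrees of freedom. CPM before log2 had 0.5 added. Alternatives were DESeq2 1.42.0, limma 3.58.1 on log2(TPM + 1) and log2(TPM + 0.1), upper-quartile scaling, no filter, a smooth correction for effective length, the isolation as a replicate block, and leaving out each library. The isolation number is a label shared by 1 AL and 1 CR animal, and deviations from the group means correlated at 0.228, 0.383 and 0.354 in isolations 1 to 3 and at 0.0562 in 4 and 5, which with 2 libraries a group are equal by construction.

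The 10 genes, the list of 57 further pathway genes, the marker lists and the ratios were chosen with earlier results of these data known. All 10 genes are named in each comparison. Of the pathway list, those with a group mean of at least 1 CPM and the smallest p of a comparison (up to 4, not all described), the paralogs and partners Rps6kb2, Eif4ebp2, Eif4ebp3, Rhebl1, Tbc1d7 and Rictor, and the 5 genes most like Mtor were named by rule. Gene places come from GENCODE M21 on GRCm38.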

Additional observations from a re-analysis of the deposited data

How the results depend on the processing

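Of the values of the 10 genes in all alternatives, 978 kept their direction and their side of the threshold, 24 passed it where edgeR with TMM scaling did not, 0 lost a call, since none was made, and 98 turned their sign, 26 of these with 1 library left out. The number of genes called depended strongly on the method. For the Lgr5 diets, the Hopx diets, their difference, the populations under AL, the populations under CR and the mean diet effect, in this order, it was 3, 2, 1, 3, 3 and 1 with edgeR, 356, 131, 35, 1118, 151 and 620 with DESeq2, 83, 7, 3, 194, 24 and 117 with no filter on low counts, 1, 2, 1, 3, 3 and 1 with upper-quartile scaling and 0, 1, 1, 43, 4 and 1 with the length correction. With limma it was 33, 4, 4, 3745, 13 and 88 on log2(TPM + 1), 1, 8, 4, 2390, 9 and 15 on the same scale with no filter, and 24, 3, 2, 3886, 13 and 72 on log2(TPM + 0.1). With the isolation as a replicate block, which could be fitted for the Lgr5 diets, the Hopx diets, their difference and the mean diet effect, it was 0, 0, 0 and 2, and 0, 0, 0 and 0 with the length correction as well. The block changed no call among the 10 genes: it gave 1.06 for Rptor, 0.92 for Mtor and 0.83 for Tsc2 in the Hopx diets (edgeR adjusted p = 0.464 for each). No block could be fitted between the populations, because no isolation held both. With 1 library left out the number called ranged from 0 to 109 (Lgr5 diets), 1 to 3 (Hopx diets), 1 to 2 (difference of diet effects), 0 to 110 (populations under AL), 1 to 7 (populations under CR), 1 to 348 (mean diet effect), the highest for the Lgr5 diets, the populations under AL and the mean diet effect being without Lgr5 AL replicate 1. Where this left 1 Hopx library in a group, that library was assumed to vary like the others.

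The sign turned in the following cases, none of them past the threshold on either side, and the cause was not tested. With limma on log2(TPM + 1), with or without the filter, and on log2(TPM + 0.1), the values were, in pairs, for the Lgr5 diets -0.092 and -0.093 for Rheb, -0.042 and -0.042 for Tsc2 and -0.14 and -0.15 for Eif4ebp1. For the Hopx diets they were 0.12 and 0.12 for Rheb. For the difference of diet effects they were 0.18 and 0.20 for Deptor, 0.21 and 0.21 for Rheb, 0.22 and 0.25 for Tsc1, 0.085 and 0.093 for Rps6kb1 and 0.031 and 0.027 for Eif4ebp1. For the populations under AL they were -0.53 and -0.55 for Deptor, -0.29 and -0.30 for Rheb, -0.67 and -0.77 for Tsc1, -0.12 and -0.13 for Rps6kb1 and -0.46 and -0.50 for Eif4ebp1. For the populations under CR they were -0.083 and -0.091 for Rptor, -0.19 and -0.19 for Akt1s1, -0.084 and -0.085 for Rheb and -0.039 and -0.038 for Rps6kb1. For the mean diet effect they were 0.012 and 0.013 for Rheb. On that scale the median of all genes itself moved, by -0.15 in the Lgr5 diets, 0.24 in the Hopx diets, 0.38 in their difference, -0.62 between the populations under AL and -0.25 under CR. With the length correction they were -0.017 for Tsc2 (Lgr5 diets), -0.14 for Deptor (Hopx diets), -0.14 for Tsc1 (Hopx diets), 0.055 for Mtor (populations under CR), -0.036 for Mlst8 (mean diet effect) and 0.0041 for Rheb (mean diet effect). With the replicate block and the length correction they were -0.011 for Tsc2 (Lgr5 diets), -0.12 for Deptor (Hopx diets), -0.20 for Tsc1 (Hopx diets), -0.033 for Mlst8 (mean diet effect), 0.0052 for Rheb (mean diet effect) and -0.029 for Tsc1 (mean diet effect). With upper-quartile scaling they were -0.0059 for Eif4ebp1 (Lgr5 diets) and -0.040 for Deptor (Hopx diets). With DESeq2 they were -0.033 for Tsc1 (populations under AL). With 1 library left out the ranges that cross 0 were -0.054 to 0.13 for Eif4ebp1 in the Lgr5 diets. In the Hopx diets they were -0.23 to 0.46 for Akt1s1, -0.20 to 0.37 for Deptor, -0.50 to 0.54 for Tsc1 and -0.0026 to 0.32 for Rps6kb1. In the difference of diet effects they were -0.78 to 0.27 for Tsc1. In the populations under AL they were -0.055 to 0.49 for Deptor, -0.12 to 0.10 for Tsc1 and -0.058 to 0.60 for Eif4ebp1. In the populations under CR they were -0.13 to 0.12 for Mtor, -0.16 to 0.038 for Mlst8, -0.24 to 0.45 for Akt1s1, -0.23 to 0.093 for Deptor, -0.77 to 0.28 for Tsc1, -0.018 to 0.41 for Rps6kb1 and -0.43 to 0.050 for Eif4ebp1. In the mean diet effect they were -0.25 to 0.095 for Akt1s1, -0.084 to 0.022 for Rheb and -0.11 to 0.41 for Tsc1. Rptor, Mtor and Tsc2 kept their sign in the Hopx diets under every alternative that was run. Precision was limited by 2 or 3 animals a group and a common biological coefficient of variation of 38.9%.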
